A study of Mus musculus with 32 samples.

Results

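The genes described here are 10 surface antigens by which blood stem cells, progenitors and leukemia cells are recognised or targeted: Cd34, Cd93, Ly6a, Cd27, Cd48, Cd69, Cd33, Il1rap, Cd44 and Cd47. They were chosen by symbol, and each was found once among the 26560 genes listed for Lin- cells and the 25887 genes listed for CD11b+ cells. Their IGF2BP3 peaks were those that carry the gene's Ensembl ID after the filter on size-matched input, and they were 81 of 41132 filtered peaks over the Lin- libraries and 68 of 33246 over the CD11b+ libraries.

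IGF2BP3 is an oncofetal RNA-binding protein that contacts RNA through KH and RRM domains and is re-expressed in MLL-rearranged leukemia. Enhanced crosslinking and immunoprecipitation (eCLIP) records where it sits on RNA: UV light links protein to RNA, RNase I trims what is not covered, and the RNA recovered with an antibody to IGF2BP3 is sequenced beside a size-matched input (smInput) of the same cells. The antigens span several tasks of the cell surface. CD34, CD93 and Ly6a (Sca-1) mark stem and progenitor cells. CD27, CD48 and CD69 are lymphoid and activation receptors that are also used to stage progenitors. CD33 is a sialic acid receptor of myeloid cells, the IL1RAP chain completes the IL-1 receptor, and CD44 anchors cells to hyaluronan. CD47 is the signal against phagocytosis that SIRPα on macrophages reads.

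The Lin- cells were lineage-depleted bone marrow cells of C57BL/6J mice that had received the MLL-Af4 fusion by retrovirus, were selected with G418 and were grown in culture with cytokines. The CD11b+ cells were taken by magnetic separation from mice with MLL-Af4 leukemia. Per the paper these mice were lethally irradiated recipients of donor marrow transduced with MLL-Af4, so the genotype is that of the donor. The CD11b+ cells came from splenic tumors for RNA-seq, whereas the tissue behind their eCLIP libraries is not settled by the sources used here. eCLIP was done in wild-type (WT) MLL-Af4 cells, with 6 Lin- libraries (3 biological, 3 technical) and 4 CD11b+ libraries (2 biological, 2 technical), each with its own smInput. The labels do not say which biological library a technical one repeats. RNA-seq had 3 WT and 3 I3KO libraries for each cell type, where I3KO is a germline deletion within Igf2bp3 and every library carries MLL-Af4. The RNA level used here is the authors' mean over all 6 libraries of a cell type, so it mixes genotypes and has no error, and no comparison of genotypes was made. Igf2bp3 itself was at a mean of 2041 in Lin- and 1355 in CD11b+ cells, and a mean over genotypes cannot check the deletion. Cells in culture and cells from a tumor differ in more than their lineage stage, and these cannot be told apart.

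The libraries held between 4040 and 10042 filtered peaks in Lin- cells and between 7085 and 10054 in CD11b+ cells, with 35663 to 233695 and 91587 to 161236 reads in those peaks. Replicates 2 and 5 of the Lin- cells stood apart from the other 4, with 24.7% and 22.1% of all their filtered peaks across a splice site against 40.7% to 52.7%. Of the markers checked, all 7 stem and progenitor genes had a mean of at least 1000 in Lin- cells and 3 of 7 in CD11b+ cells, while 7 of 8 myeloid genes had such a mean in each. Neutrophil genes did so for 3 of 6 in Lin- and 4 of 6 in CD11b+ cells, and the erythroid genes Hba-a1, at 1268, and Hbb-bs, at 1083, did in CD11b+ cells only. None of the B cell, T cell and NK cell genes reached that mean in either. The part of these other cells in the peaks was not tested. Itgam, which encodes CD11b itself, was at a mean of 17.0 in the CD11b+ table and is not listed in the Lin- table, although it held 11 merged peaks in CD11b+ cells and its partner Itgb2 was at 25977. A predicted gene, Gm49368, is annotated over the same stretch and strand as Itgam and was at 77.2, and whether reads shared by these genes were left uncounted was not tested.

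The 10 antigens differed widely in RNA level (the plot of percentiles by table). Levels were taken per kilobase of exon and ranked among the genes with a mean of at least 10, 16656 in Lin- and 16179 in CD11b+ cells, because the tables were normalised separately. Cd34 stood at percentile 97.2 in Lin- cells, followed by Cd93 at 97.0, Cd47 at 96.7 and Cd48 at 94.8. Cd44 at 88.0, Cd33 at 81.9, Cd27 at 81.0, Cd69 at 76.0 and Ly6a at 70.8 came next, and Il1rap was lowest at 26.6. In CD11b+ cells the order changed at the top, with Cd47 at 94.6, Cd33 at 91.8 and Cd44 at 90.5 ahead of Cd48 at 89.7, Cd93 at 89.0 and Cd34 at 77.7. The largest gap between the tables was that of Cd27, which stood at 16.5 in CD11b+ cells, where its mean was 33.3 against 1214 in Lin- cells. Cd69 at 53.2, Ly6a at 60.1 and Il1rap at 34.5 completed the CD11b+ list. Without replicate values, neighbours in these orders cannot be said to differ, and in bulk RNA fewer cells with the transcript and less transcript per cell cannot be told apart.

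**Figure D1:**
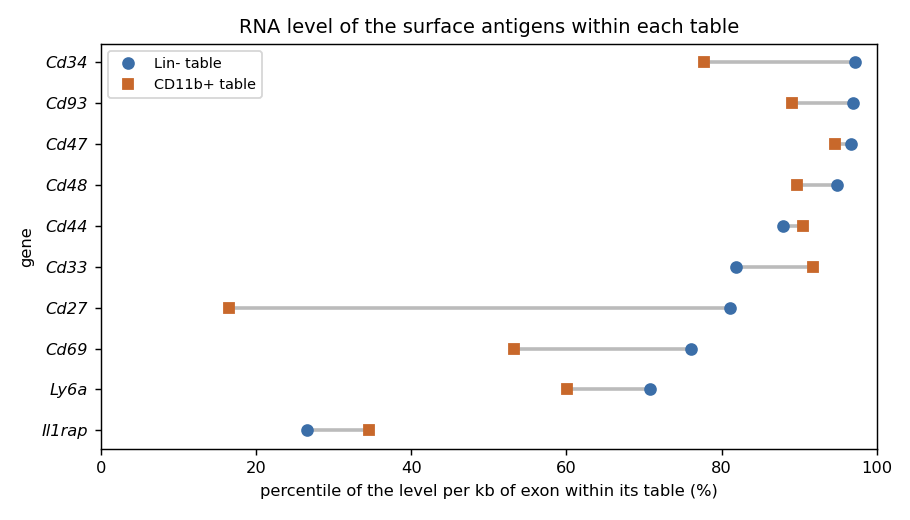
Percentile of each antigen's RNA level per kilobase of exon among the genes with a mean of at least 10, on the x axis in percent, for the Lin- table (circles) and the CD11b+ table (squares), with 1 point per gene and table and no error since the tables hold means. Cd27 spans the widest gap, from 81.0 in Lin- to 16.5 in CD11b+ cells, and Il1rap is lowest in Lin- cells at 26.6.

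Of the 10 antigens, 8 had a filtered peak in at least 1 Lin- library and 5 in at least 1 CD11b+ library. Across all genes with a mean of at least 10, a peak was found for 39.8% in Lin- and 37.1% in CD11b+ cells. Most of the antigens are abundant, and among genes with a mean of at least 1000 the shares were 76.5% and 68.4%, beside 8 of 8 antigens at that level in Lin- and 5 of 6 in CD11b+ cells, where Cd34 was the one without a peak. A peak in every biological library was seen for Cd93, Cd27, Cd33, Cd47 and Cd69 in Lin- cells, against 10.6% of all genes with a mean of at least 10, and for Cd93, Cd33, Cd44 and Cd47 in CD11b+ cells, against 15.3%. Ly6a and Il1rap had no peak in any of the 10 eCLIP libraries, before or after the input filter. A gene without a called peak is not shown to be unbound, and Ly6a belongs to a family of similar genes whose shared reads a mapper may discard.

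**Figure D2:**
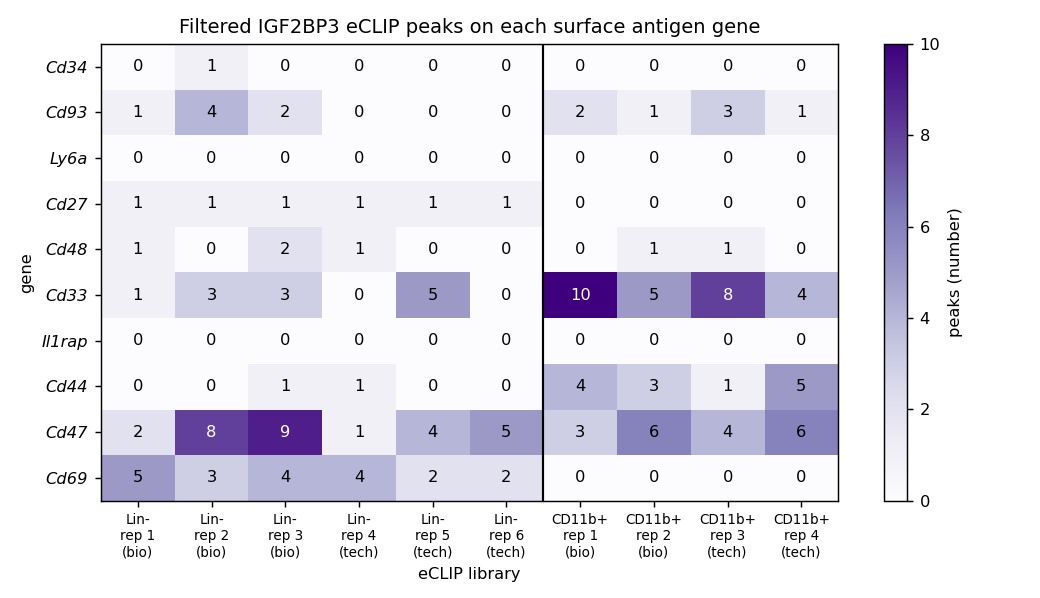
Number of filtered IGF2BP3 peaks on each antigen gene (rows) in each eCLIP library (columns, with bio and tech for biological and technical libraries), written in each cell and shaded from 0 to 10. Cd69 and Cd27 have peaks in all 6 Lin- libraries and in none of the 4 CD11b+ libraries, while Cd33 reaches 10 peaks in CD11b+ replicate 1.

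Peaks that overlapped on the same strand were merged over the libraries of a cell type, which left 38 regions for Lin- and 35 for CD11b+ cells. Cd47 had the most in Lin- cells with 15, followed by Cd69 with 7, Cd33 and Cd93 with 5 each, Cd44 and Cd48 with 2 each, and Cd27 and Cd34 with 1 each. In CD11b+ cells Cd33 led with 11, Cd44 and Cd47 had 9 each, Cd93 had 5 and Cd48 had 1. Regions of one cell type met those of the other 12 times, which is 31.6% of the Lin- regions and 34.3% of the CD11b+ regions, beside 24.9% and 29.1% of the regions on all annotated genes. Joined over both cell types they made 61 sites, of which 26 were seen in Lin- cells only, 23 in CD11b+ cells only and 12 in both. A peak in at least 4 of the 10 libraries was found at 15 sites. Technical libraries are counted there, so a site in 4 libraries can rest on 2 biological ones, as at exon 3 of Cd47.

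**Figure D3:**
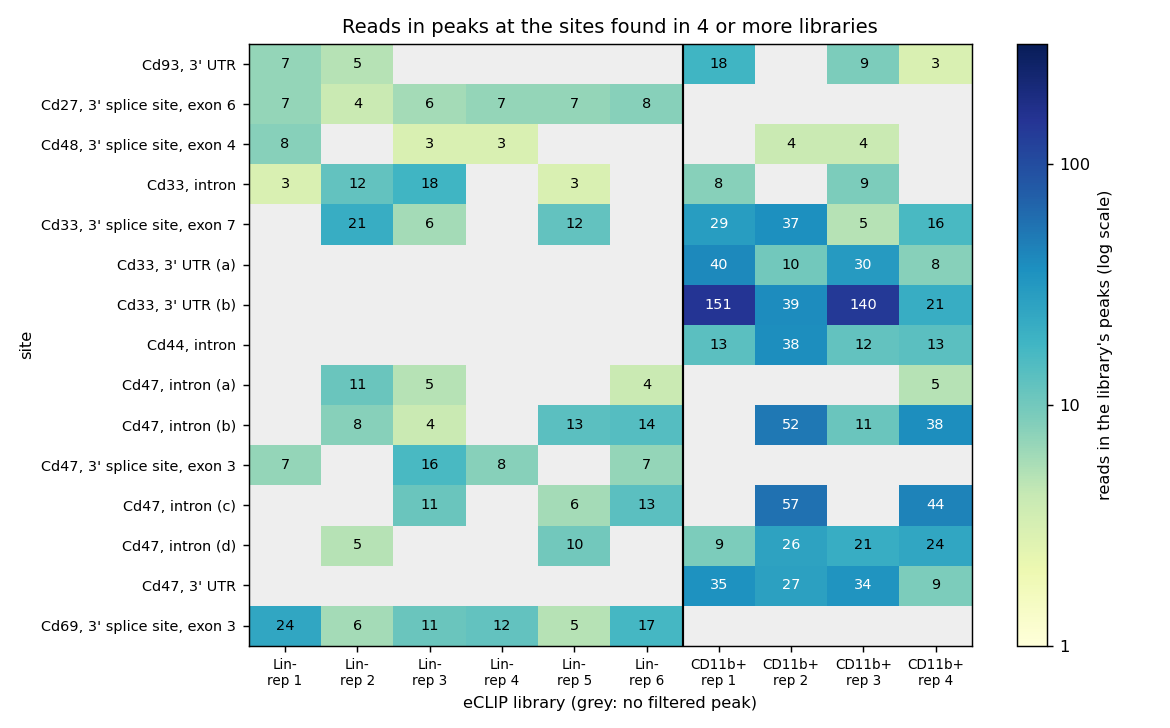
Reads in each library's filtered peaks at the 15 sites with a peak in at least 4 libraries, technical ones included. Values are written in each cell and shaded on a log scale. Grey marks no filtered peak, and letters tell sites of the same kind in a gene apart, in transcript order. Cd69 and Cd27 sites fill the 6 Lin- columns alone, and the second 3′ UTR site of Cd33 holds up to 151 reads in CD11b+ replicate 1 and none called in Lin- libraries.

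Cd69, an early activation receptor that holds cells in tissue by removing the exit receptor S1PR1 from the surface, had peaks at each exon but the first in Lin- cells (chr6:129267325-129275436, minus strand, 5 exons, GRCm38). The 7 merged peaks all ran across a splice site, and together they touched 4 of its 4 3′ splice sites and 3 of its 4 5′ splice sites. Each lay mostly in the intron, with 4 to 12 exon bases under it. They are printed in transcript order as the finding on this gene, 5′ to 3′ on the transcript strand of GRCm38, with exon bases in capitals and intron bases in lower case.
Cd69 3′ splice site of exon 2, chr6:129271448-129271503: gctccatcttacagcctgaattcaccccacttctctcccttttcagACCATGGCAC
Cd69 5′ splice site of exon 2, chr6:129271302-129271346: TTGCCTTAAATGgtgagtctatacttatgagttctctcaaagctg
Cd69 3′ splice site of exon 3, chr6:129270179-129270234: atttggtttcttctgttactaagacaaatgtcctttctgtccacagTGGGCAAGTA
Cd69 5′ splice site of exon 3, chr6:129269960-129269992: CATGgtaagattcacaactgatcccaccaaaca
Cd69 3′ splice site of exon 4, chr6:129269673-129269727: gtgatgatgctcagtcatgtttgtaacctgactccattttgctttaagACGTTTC
Cd69 5′ splice site of exon 4, chr6:129269550-129269584: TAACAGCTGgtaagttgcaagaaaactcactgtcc
Cd69 3′ splice site of exon 5, chr6:129268365-129268420: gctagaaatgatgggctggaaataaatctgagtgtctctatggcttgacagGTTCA

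The region at exon 3 of Cd69 was called in all 6 Lin- libraries, with 24, 6 and 11 reads in biological replicates 1 to 3 and 12, 5 and 17 in technical replicates 4 to 6. The regions at exons 2 and 5 had a 3′ splice site peak in 3 libraries each, that at exon 4 in 2, and the 5′ splice site regions in 1 to 3. Counted as peaks per 10000 filtered peaks of the library, Cd69 stood at 6.79, 2.99 and 4.61 in the biological Lin- libraries and had no peak in either biological CD11b+ library. The groups did not overlap (Lin- 4.80 ± 1.91, SD, n = 3, two-sided exact permutation p = 0.1, the smallest that 3 libraries against 2 allow). By reads in peaks per 10000 reads in all filtered peaks the Lin- mean was 4.43, with an exact permutation p of 0.2. Its RNA, a mean over WT and I3KO libraries, stood at percentile 76.0 in Lin- and 53.2 in CD11b+ cells (means of 1047 and 285). The part of this gap in the missing peaks was not tested.

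Cd27, a costimulatory receptor of the TNF receptor family that binds CD70, had 1 peak, at the 3′ splice site of its last exon, exon 6 (chr6:125232622-125237010, minus strand). It too was called in all 6 Lin- libraries and in no CD11b+ library, with 7, 4, 6, 7, 7 and 8 reads in Lin- replicates 1 to 6. The values per library are thus close to each other and low. Cd27 RNA stood at percentile 81.0 in Lin- and 16.5 in CD11b+ cells, and the part of this gap in the missing CD11b+ peak was not tested. Peaks per 10000 were 1.36, 0.996 and 1.15 in the biological Lin- libraries, with no CD11b+ peak (p = 0.1 by the same exact permutation test, 0.2 by reads in peaks). Vamp1 is annotated on the opposite strand across part of Cd27, and peaks were taken by strand. Cd48, a ligand of CD244 and a marker used to separate progenitors from stem cells, had a region at the same kind of place, the 3′ splice site of its exon 4 (chr1:171682009-171705258, plus strand). It was called in Lin- replicates 1, 3 and 4 with 8, 3 and 3 reads and in CD11b+ replicates 2 and 3 with 4 reads each. The sequences of both sites are shown for their polypyrimidine stretch ahead of the exon, with exon bases in capitals.
Cd27 3′ splice site of exon 6, chr6:125233405-125233480: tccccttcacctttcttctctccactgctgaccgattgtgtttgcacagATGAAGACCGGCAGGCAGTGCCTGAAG
Cd48 3′ splice site of exon 4, chr1:171704745-171704812: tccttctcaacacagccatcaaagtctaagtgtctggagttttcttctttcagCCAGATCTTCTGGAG

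By the rule of a peak in every biological library of one cell type and none of the other, Cd27 and Cd69 were called for Lin- cells, where 2.3% of the 14658 genes with a mean of at least 10 in both tables were. Both also had a lower RNA percentile in CD11b+ cells, 16.5 for Cd27 and 53.2 for Cd69, than in Lin- cells, 81.0 and 76.0. The part of level in these calls was not tested. No antigen was called for CD11b+ cells, against 2.9% of those genes. Peaks per 10000 lay apart between the cell types for 4 antigens, higher in Lin- cells for Cd27 and Cd69, against 5.03% of the genes, and higher in CD11b+ cells for Cd33 and Cd44, against 5.91%. Before the input filter the cell types also lay apart for Cd27, Cd69 and Cd33, whereas for Cd44 they overlapped.

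Cd33, a receptor of the Siglec family and a target of antibody therapy in myeloid leukemia, had peaks in both cell types (chr7:43524216-43544428, minus strand). In its 3′ UTR peaks were called in CD11b+ cells only, which does not show that Lin- cells lack binding there. In Lin- cells its 5 regions lay within introns, across splice sites or in coding exons, and no 3′ UTR peak was called in any of the 6 libraries. In CD11b+ cells 6 of its 11 regions lay in the 3′ UTR, which is 4649 nt long in the annotation. Peaks that touched without overlap were kept apart, so these are not all separate places. Thus chr7:43527909-43527925 abuts chr7:43527893-43527908, and chr7:43527692-43527710 abuts chr7:43527517-43527691. All of these but the last were called in CD11b+ replicate 1 alone. The strongest 3′ UTR region, chr7:43527517-43527691, had 151 and 39 reads in biological replicates 1 and 2 and 140 and 21 in technical replicates 3 and 4, summed over its adjacent peaks. The next, chr7:43528583-43528633, had 40, 10, 30 and 8. All 4 CD11b+ libraries thus had calls at these places, with replicates 1 and 3 above 2 and 4 at each, and no Lin- library had a call there.

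The 30 bases around the centre of the strongest peak are printed for each, 5′ to 3′ on the minus strand. Capitals mark ACACAC or CACACA, the 6-mers that were searched on the transcript strand as a short form of a CA repeat, overlaps included. At the stronger site the peak centres of the 4 libraries fell within 10 nt of each other, at the other site within 5 nt. The stronger region holds a CA run of 29 nt, and the other site is rich in C and T with no 6-mer of that kind.
Cd33 3′ UTR, stronger site, chr7:43527634-43527663: gcaaatagttACACACACACACACACACAC
Cd33 3′ UTR, other site, chr7:43528593-43528622: cttctcctcctgcctcacctctttctcctt

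Other Cd33 regions were common to the cell types, 3 of the 5 in Lin- cells. That at the 3′ splice site of exon 7 had 21, 6 and 12 reads in Lin- replicates 2, 3 and 5 and 29, 37, 5 and 16 in CD11b+ replicates 1 to 4. It holds the 6-mer near its 3′ end and also GGAC, the core of the sequence in which adenosine is often methylated. A region 11 nt ahead of exon 3 was called in Lin- replicates 1, 2, 3 and 5 with 3, 12, 18 and 3 reads and in CD11b+ replicates 1 and 3 with 8 and 9. At the 5′ splice site of exon 1, Lin- cells had a region of up to 13 reads where CD11b+ cells had none. These are shown as the Cd33 regions outside the 3′ UTR with the most libraries or reads, with the 6-mer in capitals in the first and exon bases in capitals in the others.
Cd33 3′ splice site of exon 7, chr7:43529008-43529069: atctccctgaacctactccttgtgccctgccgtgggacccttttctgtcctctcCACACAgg
Cd33 intron ahead of exon 3, chr7:43532327-43532397: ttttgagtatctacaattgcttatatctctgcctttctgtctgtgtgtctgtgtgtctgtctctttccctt
Cd33 5′ splice site of exon 1, chr7:43533037-43533086: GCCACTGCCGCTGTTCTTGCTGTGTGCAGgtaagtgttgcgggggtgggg

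Peaks per 10000 on Cd33 were 1.36, 2.99 and 3.45 in the biological Lin- libraries and 11.7 and 4.97 in the CD11b+ libraries. Touching peaks count apart here, and in CD11b+ replicate 1 several of its 10 peaks touched. The means were 2.60 ± 1.10 (SD, n = 3) and 8.35 ± 4.78 (SD, n = 2), without overlap (exact permutation p = 0.1). The difference, -5.75, became -2.37 without CD11b+ replicate 1 and -9.14 without CD11b+ replicate 2. As reads in its peaks per 10000 reads in all filtered peaks, the means were 2.06 and 15.4 (exact permutation p = 0.1). Its RNA, over WT and I3KO libraries together, stood at percentile 81.9 in Lin- and 91.8 in CD11b+ cells (means of 4943 and 9129).

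**Figure D4:**
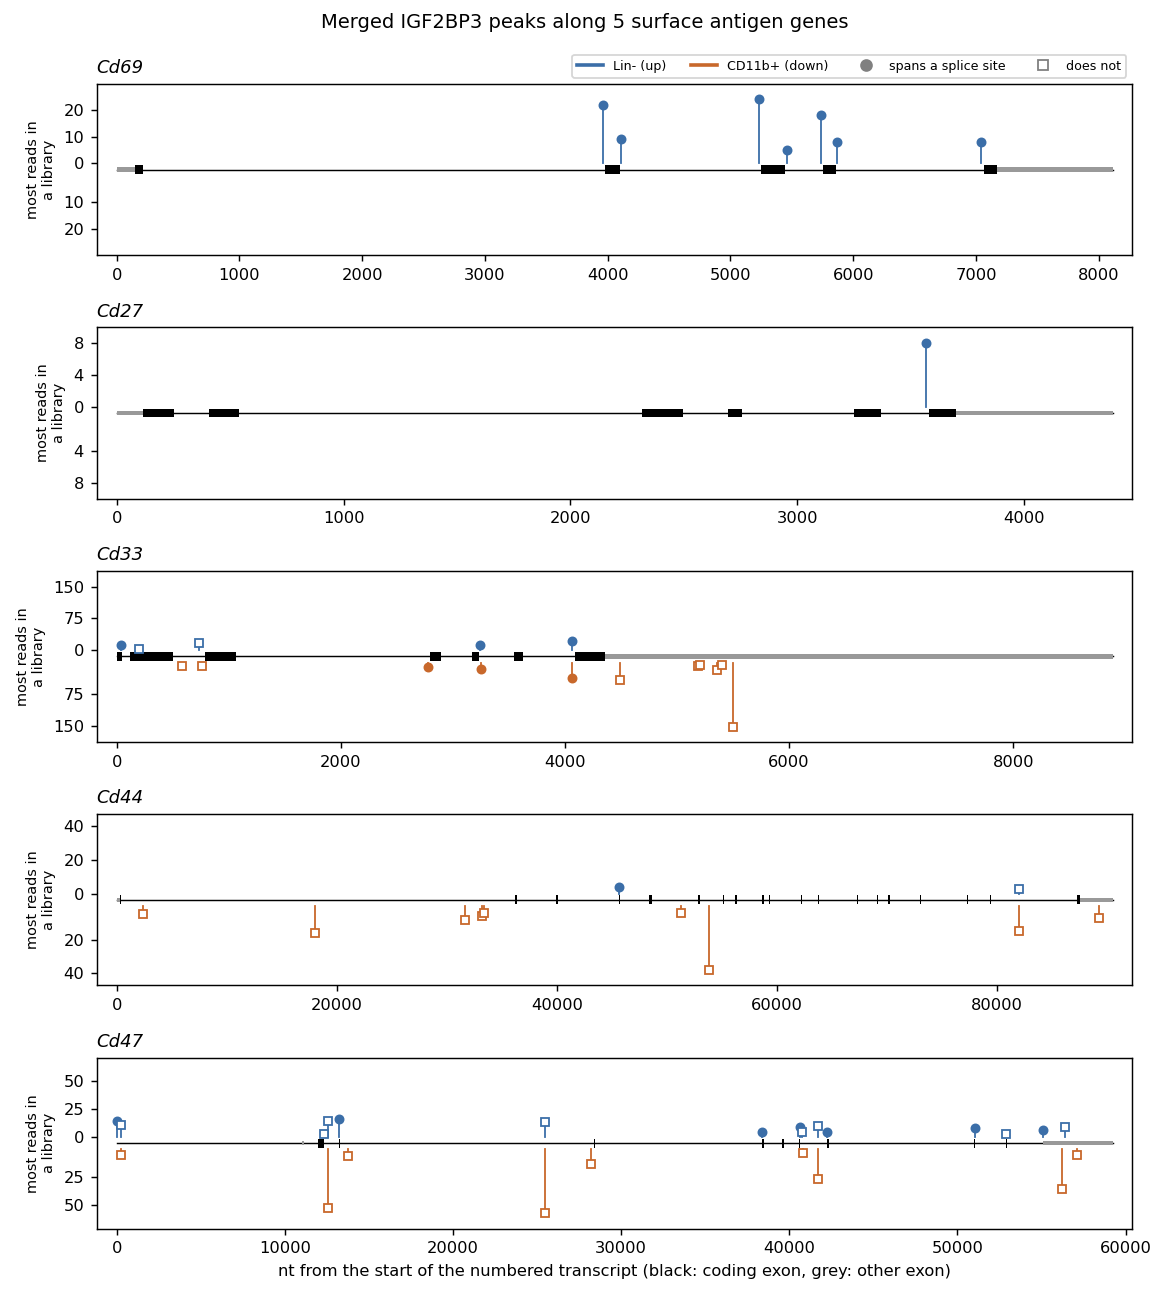
Merged peaks along Cd69, Cd27, Cd33, Cd44 and Cd47, with the distance in nt from the start of the transcript whose exons are numbered on the x axis, coding exons in black and other exons in grey. Stems give the most reads of the region in any library (Lin- upward, CD11b+ downward, linear scale that differs between genes), filled circles mark regions across a splice site and open squares the others. Cd69 stems all point upward and end in circles, and the tallest Cd33 stem, 151 reads, lies in the 3′ UTR in CD11b+ cells.

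Cd44, the hyaluronan receptor through which leukemia stem cells lodge in marrow, showed the same direction (chr2:102811141-102901665, minus strand, 19 exons in the numbered transcript). It had 1 peak each in Lin- replicates 3 and 4, of 4 and 3 reads, and 4, 3, 1 and 5 peaks in CD11b+ replicates 1 to 4. Peaks per 10000 were 0.384 ± 0.665 (SD, n = 3) in Lin- and 3.84 ± 1.21 (SD, n = 2) in CD11b+ cells, without overlap (exact permutation p = 0.1). Before the input filter the values were 1.10, 5.17 and 2.02 in Lin- and 4.19 and 3.40 in CD11b+ libraries, which overlap, and the difference was -1.03 (exact permutation p = 0.5) in place of -3.46. The 5.17 is that of Lin- replicate 2, whose 6 peaks lay between chr2:102829348 and chr2:102829458, some touching, and were counted apart. The other Lin- values lie below both CD11b+ values, so the overlap rests on that library. Its RNA stood at percentiles 88.0 and 90.5. Of the 9 CD11b+ regions, 8 lay in introns and none crossed a splice site. The region called in all 4 CD11b+ libraries, 805 nt from the nearest splice site, had 13, 38, 12 and 13 reads and is a TG repeat. A further pair of intronic regions is made of CA repeats. The last of these had a peak only in technical libraries, 1 of each cell type. All are printed for the repeat under the peak.
Cd44 intron, TG repeat, chr2:102847773-102847852: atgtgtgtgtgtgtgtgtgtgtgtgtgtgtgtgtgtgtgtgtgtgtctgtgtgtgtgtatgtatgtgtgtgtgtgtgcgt
Cd44 intron, CA repeat, chr2:102883562-102883629: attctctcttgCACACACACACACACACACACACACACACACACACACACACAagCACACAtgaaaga
Cd44 intron near the 3′ end, CA repeat, chr2:102819611-102819685: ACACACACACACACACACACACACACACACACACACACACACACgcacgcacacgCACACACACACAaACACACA

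The counts for Cd44 depend on the input filter at 1 place. Between chr2:102829333 and chr2:102829460, in an intron, peaks of up to 71 reads were called in all 6 Lin- libraries. CD11b+ replicates 2 and 4 had peaks there too, and the filter removed all of these. Peaks of 3 to 11 reads were also called there in smInput libraries. Before the filter this was the strongest place on Cd44 in Lin- cells. The smInput libraries numbered 1 and 5 of the Lin- cells had no peak with the Cd44 ID there. Why the peaks of Lin- replicates 1 and 5 were removed was not tested. On Cd47 the filter removed 2 peaks, both in Lin- replicate 1, of 6 and 9 reads. No smInput library had a peak on any antigen other than Cd44 and Cd47.

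Cd47, the anti-phagocytic signal, was bound in all 10 libraries (chr16:49800533-49915010, plus strand, 12 exons in the numbered transcript). Lin- replicates 1 to 6 had 2, 8, 9, 1, 4 and 5 peaks and CD11b+ replicates 1 to 4 had 3, 6, 4 and 6. Peaks per 10000 were 7.02 ± 3.91 (SD, n = 3) in Lin- and 4.74 ± 1.73 (SD, n = 2) in CD11b+ cells, and the groups overlapped (exact permutation p = 0.5). By reads in peaks the order was the other way, with 4.20 and 7.83 per 10000 (exact permutation p = 0.4), so the direction depended on the measure. Of the 15 Lin- regions 7 crossed a splice site (46.7%, beside 45.8% of the Lin- regions on all genes), at 4 of 11 3′ splice sites and 3 of 11 5′ splice sites, and of the 9 CD11b+ regions none did, beside 10.3% of all. A 3′ UTR region, chr16:49911940-49912013, was called in all 4 CD11b+ libraries with 35, 27, 34 and 9 reads and in no Lin- library.

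In 3 introns of Cd47 both cell types had filtered peaks at the same CA repeats. The one nearest exon 2 had 8, 4, 13 and 14 reads in Lin- replicates 2, 3, 5 and 6 and 52, 11 and 38 in CD11b+ replicates 2, 3 and 4. The next had 11, 6 and 13 in Lin- replicates 3, 5 and 6 and 57 and 44 in CD11b+ replicates 2 and 4. At these first 2 repeats smInput libraries had peaks too, of 3 and 4 reads in Lin- inputs 1 and 4 at the former, and of 9 and 10 reads in the same inputs and 4 in CD11b+ input 1 at the latter. The peaks that the filter removed from Lin- replicate 1 lay at both. The last repeat, which had no smInput peak, had 5 and 10 in Lin- replicates 2 and 5 and 9, 26, 21 and 24 in CD11b+ replicates 1 to 4. They are printed with the 6-mer in capitals, together with the centre of the 3′ UTR site, a stretch of C and T, and with the 3′ splice site of exon 3 (exon in capitals), which had 7, 16, 8 and 7 reads in Lin- replicates 1, 3, 4 and 6 and no CD11b+ peak.
Cd47 intron after exon 2, CA repeat, chr16:49868286-49868381: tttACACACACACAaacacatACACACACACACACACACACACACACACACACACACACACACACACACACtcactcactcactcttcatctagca
Cd47 intron ahead of exon 4, CA repeat, chr16:49881242-49881333: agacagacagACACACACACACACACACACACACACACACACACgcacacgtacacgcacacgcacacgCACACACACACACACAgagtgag
Cd47 intron ahead of exon 8, CA repeat, chr16:49897462-49897531: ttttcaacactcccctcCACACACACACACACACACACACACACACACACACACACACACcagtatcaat
Cd47 3′ UTR, chr16:49911947-49911976: ctcctgcagcctccctcttcctcctcctct
Cd47 3′ splice site of exon 3, chr16:49868968-49869025: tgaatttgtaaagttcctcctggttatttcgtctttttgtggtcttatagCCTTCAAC

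Cd93, a lectin-like receptor of progenitors, myeloid and endothelial cells, was bound in its long 3′ UTR in both cell types (chr2:148436640-148443563, minus strand, 2 exons, 3′ UTR of 4606 nt). The region at chr2:148439465-148439568 had 7 and 5 reads in Lin- replicates 1 and 2 and 18, 9 and 3 in CD11b+ replicates 1, 3 and 4. All 5 CD11b+ regions lay in the 3′ UTR. Of the 5 Lin- regions 2 did, 2 lay in the coding part of exon 1 and 1 crossed the 3′ splice site of exon 2. Peaks per 10000 were 1.36, 3.98 and 2.30 in Lin- and 2.35 and 0.995 in CD11b+ biological libraries, which overlap (exact permutation p = 0.5). The centre of the shared region is a run of C and T and is printed beside the splice site, whose exon bases are in capitals.
Cd93 3′ UTR, chr2:148439530-148439559: agtctctctctctcctccctctctctctct
Cd93 3′ splice site of exon 2, chr2:148441262-148441315: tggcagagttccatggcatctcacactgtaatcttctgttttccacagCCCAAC

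Cd34, a sialomucin of stem and progenitor cells, had a single call, and how many are usual at its level was not tested. At percentile 97.2 in Lin- cells it had 1 peak of 7 reads, in replicate 2, which ends 5 nt ahead of exon 7 (chr1:194938819-194961279, plus strand). No other of the 10 libraries had a peak on Cd34. Il1rap, the receptor subunit that IL-1 and IL-33 signals share, and Ly6a, a small GPI-linked antigen, had none. Il1rap is the longest of the 10 genes at 148414 nt and had 7 CA runs and 15 TG runs of at least 12 nt, all without a peak. Its RNA was low per kilobase of exon, at 54.8 in Lin- and 72.7 in CD11b+ cells, from means of 471 and 626. Ranked without the length it stood at percentiles 47.4 and 61.0. Ly6a, at means of 500.3 and 226, was short and stood at percentiles 70.8 and 60.1 per kilobase. The Cd34 peak is shown with no capitals, since it lies wholly in the intron.
Cd34 intron ahead of exon 7, chr1:194959009-194959061: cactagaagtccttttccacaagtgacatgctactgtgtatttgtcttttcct

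Over all antigens, the shares of peaks across a splice site and in a 3′ UTR differed between the cell types in the direction in which all genes differed (the plot of shares by library). The intronic share went the other way. It was 78.9% of the Lin- and 60.0% of the CD11b+ regions of the antigens, beside 79.0% and 85.0% of all regions. Of the Lin- regions 21 of 38 crossed a splice site (55.3%, 95% Wilson interval 39.7% to 69.9%), beside 45.8% of the 19979 regions on all annotated genes, and of the CD11b+ regions 3 of 35 did (8.57%, 2.96% to 22.4%), beside 10.3% of 17294. Without Lin- replicates 2 and 5, a setting chosen after seeing the data, the Lin- shares were 14 of 27 for the antigens (51.9%) and 52.9% for all genes. By library, 72.7%, 45.0% and 50.0% of the antigens' peaks crossed a splice site in Lin- biological replicates 1 to 3, and 0% and 12.5% in CD11b+ replicates 1 and 2. Where a 3′ splice site was crossed in Lin- cells, a median of 48 intron bases and 6 exon bases lay under the region (n = 13), and where a 5′ splice site was crossed the medians were 26.5 and 13.5 (n = 8). Regions with their midpoint in a 3′ UTR made up 3 of 38 in Lin- cells (7.89%, against 3.39% of all) and 14 of 35 in CD11b+ cells (40.0%, 25.6% to 56.4%, against 7.86% of all). By library that share of the antigens' peaks was 68.4% and 31.3% in CD11b+ biological replicates 1 and 2 and lower than replicate 1 in technical replicates 3 and 4 too, with 8 of 17 and 4 of 16 peaks. Those 14 came from Cd33 with 6, Cd93 with 5, Cd47 with 2 and Cd44 with 1, and the 6 of Cd33 include touching ones. The annotated 3′ UTRs of Cd33, Cd93 and Cd47 are 4649, 4606 and 4140 nt long, and the shares of all genes were not matched for such lengths. Many of these regions rest on 1 library, and of the 5 on Cd93 only 1 was in 2 or more libraries. Regions of 1 gene are not independent, and intervals cover counting error only.

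**Figure D5:**
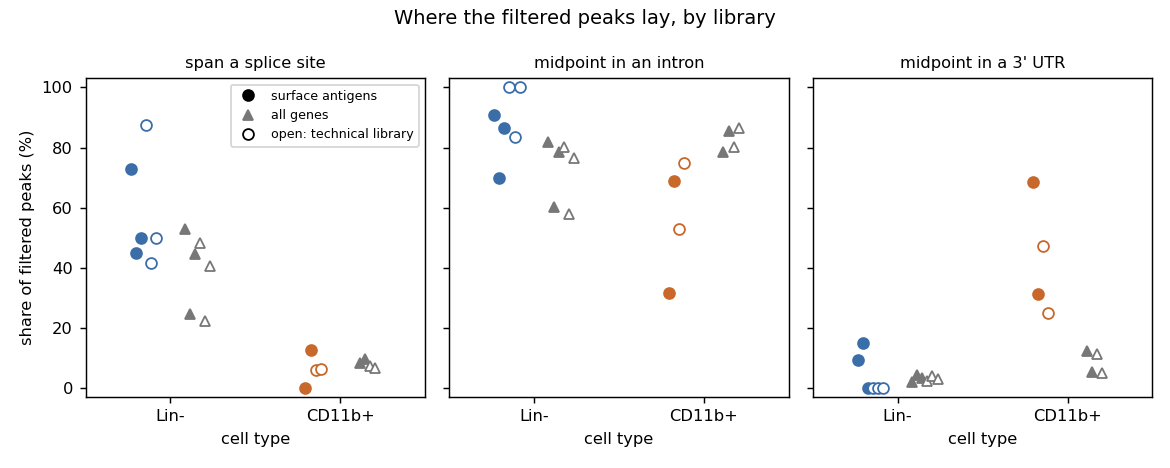
Share of filtered peaks in percent that cross a splice site, have their midpoint in an intron or have it in a 3′ UTR, for the antigens (circles) and all genes (grey triangles), with 1 point per library and open symbols for technical libraries. In the left panel each Lin- library lies above each CD11b+ library for both sets, and in the right panel the antigens of CD11b+ replicate 1 reach 68.4%.

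Repeats of 2 bases were the other feature. The 6-mer ACACAC or CACACA was in 6 of 38 Lin- regions (15.8%, against 8.49% of all Lin- regions) and in 11 of 35 CD11b+ regions (31.4%, against 17.3% of all). An unbroken CA run of at least 12 nt was under 4 Lin- regions (10.5%, against 6.20% of all) and 6 CD11b+ regions (17.1%, against 14.5%). A TG run of that length was under no Lin- region of an antigen (4.28% of all) and under 5 CD11b+ regions (14.3%, against 19.4%). Taken from the genes' side, the 10 genes hold 33 CA runs on the transcript strand, of which 6 met a Lin- peak and 8 a CD11b+ peak, and 38 TG runs, of which none met a Lin- peak and 7 a CD11b+ peak. Of the 14 CA runs of Cd47, 4 met a peak in each cell type. GGAC was in 2 Lin- regions (5.26%, against 11.2%) and 3 CD11b+ regions (8.57%, against 9.92%). How uniquely reads map to such repeats was not tested.

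Partners of the antigens, a list of ligands, coreceptors and adaptors, were looked up next. Of 32 symbols 30 were matched, and 16 of the 26 with a mean of at least 10 had a peak in Lin- cells (61.5%) and 14 of 25 in CD11b+ cells (56.0%), beside the 39.8% and 37.1% of all genes at that level and the 76.5% and 68.4% of those with a mean of at least 1000. Sirpa, the receptor for CD47 on phagocytes, had 3 merged peaks in Lin- and 9 in CD11b+ cells, the most of the list there, at means of 7070 and 8607. Thbs1, the secreted CD47 ligand thrombospondin, had 5 in Lin- cells and none in CD11b+ cells, where its mean was 1383 against 19808. For CD44, the ERM linkers Ezr and Msn had 3 and 2 in Lin- cells and 2 and 8 in CD11b+ cells. In the IL-1 pathway, the kinase Irak1 had 5 and 4, its relative Irak4 none and 2, and the receptor Il1r1 none and 1. The CD244 gene Cd244a, the receptor for CD48, had 3 in Lin- cells and 1 in CD11b+ cells, where all 4 libraries had it. C1qbp had 6 and none, and the phosphatase Ptpn6 had 5 and 2.

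Among 52 other surface antigens, 30 of the 47 matched with a mean of at least 10 had a peak in Lin- cells (63.8%) and 31 of 46 in CD11b+ cells (67.4%), beside the same shares of all genes. In Lin- cells the integrin Itga4 led with 20 merged peaks. The transferrin receptor Tfrc followed with 12, the stem cell factor receptor Kit with 10, and the FLT3 receptor and CD45 genes Flt3 and Ptprc with 8 each. In CD11b+ cells Itga4 and the chains of CD11b/CD18, Itgam and Itgb2, had 11 each, Ptprc had 10 and the M-CSF receptor Csf1r had 9. Igf2bp3 itself had 3 merged peaks in Lin- and 4 in CD11b+ cells.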

How the data were processed

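The authors deposited 1 table per cell type for the RNA-seq libraries (3 WT and 3 I3KO each, aligned to mm10 with STAR 2.5.3a per the labels) and peak files for 10 eCLIP and 10 smInput libraries. From the tables the mean normalized count was used, a normalized signal that the authors made with DESeq2 from all 6 libraries per cell type. The tables also hold the authors' own comparison of genotypes (fold change, error, statistic, p-values and peak flags), which was not used, so no genotype is compared here. eCLIP reads were repeat-filtered, mapped and deduplicated by the authors, and peaks were called per library with CLIPper at a p of at most 0.05 and removed where they overlapped smInput peaks. Per the file headers, inputs had other deduplication and calling settings. The last part of a peak's deposited name was read as its number of reads (3 or more in every peak). The headers do not state this, and its Spearman correlation with the peak's p lay between -0.989 and -0.975 within libraries.

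Peaks were assigned by the Ensembl ID in their name and merged when they shared at least 1 nt on a strand, so peaks that only touched stayed apart. Places came from GENCODE M21 (basic set) at the region's midpoint, exons were numbered in the transcript with the longest coding part, and sequences were read from GRCm38, where 292 of 292 introns of the antigens had GT and AG ends. Cell types were compared by a two-sided exact permutation test over the biological libraries, 3 against 2, which cannot give less than 0.1. The p-values measure the spread between these libraries. Depth beyond reads in peaks is not given in the sources used here, and intervals are Wilson intervals at 95% for counting error. The code was tested on simulated data. Named genes were all 10 antigens, Igf2bp3 and up to 5 genes per list and cell type with the most merged peaks among those with a peak in at least 2 biological libraries, and other partners named were chosen after their values were seen. The antigens, the lists and the rules were chosen with earlier results of these data known, and the search for repeat runs was added after the peaks were seen. Python 3.11.15, NumPy 2.4.6, SciPy 1.17.1, pysam 0.24.0 and matplotlib 3.10.9 were used.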

Additional observations from a re-analysis of the deposited data

Results flagged for a closer look

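Groups of 4 to 10 libraries were searched for a value far from the rest, by the gap to its neighbour over the whole range (Dixon's ratio at 95%). Of 13 groups with any spread, 1 was flagged, and chance flags about 1 in 20 groups. The value is the 0.996 peaks per 10000 filtered peaks of Cd34 in Lin- replicate 2, which is its lone peak of 7 reads, while the other 5 Lin- libraries had none. Lin- replicate 2 also had the most filtered peaks of the Lin- libraries, 10042. Without that library no antigen peak on Cd34 remains.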

How the results depend on the processing

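The number of antigens with a peak was 6 to 8 for Lin- cells and 4 or 5 for CD11b+ cells under these alternatives (biological libraries only, no input filter, a peak value below 0.001, assignment by position, a peak in at least 2 libraries), and between 7 and 8 and at 5 when a biological library was left out. The 38 merged regions of Lin- cells became 23 with a peak value below 0.001, 21 with a peak in at least 2 libraries and 13 with at least 10 reads, and the 35 of CD11b+ cells became 23, 15 and 15. The last of these settings was chosen after seeing the data. Leaving out a biological library gave 31 to 38 and 28 to 31. The intronic share of the Lin- regions, 78.9% by midpoint, fell to 28.9% when any exon base made a region exonic, since so many cross a splice site, and that of CD11b+ cells went from 60.0% to 51.4%. Of 72 alternative values for the differences in peaks per 10000, 68 kept their direction and 1, Cd34 without Lin- replicate 2, became 0. The other 3 turned: Cd93 to -0.903 with the technical libraries and to -0.427 by reads in peaks, and Cd47 to -3.62 by reads in peaks. The cause was not tested. Fitted in pairs with the replicate number as a block, over numbers 1 and 2, the differences were 4.89 for Cd69, 1.18 for Cd27, -6.18 for Cd33 and -3.84 for Cd44 (exact sign permutation p = 0.5, the smallest with 2 pairs). Same-numbered libraries did not deviate together over the 10 antigens (r of 0.0851 and -0.136), so the numbers were not taken as pairs. Level percentiles moved by more than 10 points in 15 of 40 alternatives, by at most 30.7. The lowest reads in peaks, 35663 in a Lin- library, limit what could be called there.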
